A study of Homo sapiens with 9 samples.

Results

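The 10 genes described here encode secreted signalling proteins, namely 5 CXC chemokines (CXCL8, CXCL1, CXCL2, CXCL3 and CXCL5), the CC chemokine CCL20, the interleukin-6 family ligands IL11 and LIF, the colony-stimulating factor CSF1 and IL32. They are 10 of 62703 genes listed, and each symbol was found under 1 Ensembl identifier. They were selected on their counts in these same libraries, where several of them stood out as higher after treatment, so their levels and fold changes are given as a description. Calls on them from a fit over all genes are given further on as a description too, and nothing is read from them. The cells were HepG2, a human hepatocellular carcinoma line, which were either untreated (control) or treated for 72 h with eliglustat, a drug that inhibits glucosylceramide synthase, at 20 or 30 µM, with 3 RNA sequencing libraries in each group. All values come from this 1 cell line, and no time is given for the controls. Whether the 3 libraries of each group stem from 3 cultures is not stated, so a p-value here reflects only library-to-library spread, and that spread could be technical. A lower dose named in the series text has no library among these samples.

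Chemokines are small secreted proteins that guide the movement of leukocytes. CXCL8 (interleukin-8) and its relatives CXCL1, CXCL2, CXCL3 and CXCL5 draw neutrophils through the receptors CXCR1 and CXCR2, and CCL20 draws CCR6-bearing lymphocytes and dendritic cells. IL11 and LIF bind their own receptor chains, IL11RA and LIFR, and signal through the shared chain gp130 (IL6ST) to JAK kinases and STAT3. CSF1 supports macrophages through CSF1R, and IL32 is a proinflammatory cytokine made by lymphocytes and by epithelial cells. Many chemokine genes have sites for NF-kB and AP-1 just before their transcription start, and many of their mRNAs are short-lived because proteins such as tristetraprolin (ZFP36) bind AU-rich elements in them.

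The stretches before the transcription start of 4 of the genes are shown because these genes cover the extremes seen in the data, that is 3 genes with high levels at 30 µM (CXCL8, IL11 and CCL20) and CXCL1, a near relative of CXCL8 with almost no counts. The sequences come from RefSeq (GRCh38.p14), run 5′ to 3′ on the strand of the gene, and are cut before any GENCODE 29 exon of the gene that they reach. For CCL20 this is not the first exon, since the gene begins at chr2:227805739 in GENCODE 29, upstream of the stretch. CXCL8 is shown from chr4:73740319-73740505 (plus strand), CXCL1 from chr4:73869143-73869392 (plus strand), IL11 from chr19:55370464-55370713 (minus strand) and CCL20 from chr2:227813592-227813821 (plus strand). Capitals mark matches to motifs of NF-kB (GGAATTTCC, or GGGNNTTTCC, which overlap where a site fits both) and AP-1 (TGANTCA), searched on both strands and chosen after the sequences had been seen.
CXCL8: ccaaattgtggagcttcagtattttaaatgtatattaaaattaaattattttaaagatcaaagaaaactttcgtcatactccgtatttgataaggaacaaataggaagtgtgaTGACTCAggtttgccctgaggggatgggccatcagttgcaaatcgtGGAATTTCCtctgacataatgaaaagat
CXCL1: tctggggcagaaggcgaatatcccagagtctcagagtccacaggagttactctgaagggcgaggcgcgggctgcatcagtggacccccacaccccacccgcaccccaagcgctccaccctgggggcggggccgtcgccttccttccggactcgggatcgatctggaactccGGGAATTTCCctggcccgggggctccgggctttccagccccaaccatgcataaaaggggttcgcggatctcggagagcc
IL11: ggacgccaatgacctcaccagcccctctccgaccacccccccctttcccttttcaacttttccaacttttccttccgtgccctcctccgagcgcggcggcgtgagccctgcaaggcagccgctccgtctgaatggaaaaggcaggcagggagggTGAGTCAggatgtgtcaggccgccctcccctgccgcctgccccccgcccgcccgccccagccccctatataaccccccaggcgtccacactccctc
CCL20: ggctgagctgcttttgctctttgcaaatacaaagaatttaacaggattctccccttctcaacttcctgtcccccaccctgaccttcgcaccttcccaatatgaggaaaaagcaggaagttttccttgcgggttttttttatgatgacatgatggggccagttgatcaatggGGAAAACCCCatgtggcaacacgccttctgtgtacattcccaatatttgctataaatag

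CXCL8 held GGAATTTCC from 91 to 83 bases before its RefSeq start and TGACTCA from 137 to 131 bases before it. CXCL1, CXCL2, CXCL3 and CXCL5 each held GGGAATTTCC, which began 79, 78, 79 and 91 bases before their RefSeq starts. IL11 had no NF-kB match but held TGAGTCA from 96 to 90 bases before its start, and CCL20 held GGAAAACCCC, a match on the opposite strand, from 79 to 70 bases before its start. The first of 2 RefSeq promoters of IL32 held GGGAGTTTCC, and the second held none of the 3 motifs. Of 35116 RefSeq promoters, 0.413% held GGAATTTCC, 1.73% held GGGNNTTTCC and 6.57% held TGANTCA. These matches are a description of letters and not of binding. RefSeq entries were matched for 8 of the 10 genes, without LIF and CSF1.

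The libraries held 21103757 to 26782810 counts in genes. A level is given as CPM, a count relative to the TMM-scaled library total. A count of 0 allows up to 3 counts, or 0.108 to 0.139 CPM, and such limits cover counting error only. Genes were tested together, 17623 of them, with edgeR quasi-likelihood, and log2 changes are given ± SE. Of the 10 cytokine genes, 7 had enough counts to enter the fit, and CXCL2 did so only through its 30 µM libraries, whereas CXCL1, CXCL3 and CXCL5 did not. Summed over the 10 genes, the level ranged from 45.7 to 50.4 CPM in the control libraries, from 65.0 to 73.2 CPM at 20 µM and from 439.9 to 453 CPM at 30 µM. In bulk RNA, more cells making a transcript and more transcript per cell cannot be told apart.

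The hepatocyte marker list summed to 31592 to 32568 CPM in control libraries, 35079 to 35520 CPM at 20 µM and 39516 to 39900 CPM at 30 µM. APOB, the apolipoprotein B gene, made up most of that sum and about all of its difference between 30 µM and control. It had 27773 ± 419.8 CPM at 30 µM against 19950 ± 296 CPM in control (SD, n = 3 each). At 20 µM APOB had 21521 CPM and made up only part of the difference from control. Of the 9 hepatocyte markers 3 rose and 4 fell at 30 µM against control, where 29.5% of all genes tested rose and 31.3% fell. The 3 that rose were TTR (log2 change 1.25), APOB (0.48) and SERPINA1 (0.23). The 4 that fell were ALB (−0.47), AFP (−0.52), FGB (−0.355) and HNF4A (−0.23). The list of 9 leukocyte markers summed to 450.4 to 496 CPM in control libraries, 438 to 475 CPM at 20 µM and 637 to 667 CPM at 30 µM. LYZ, the lysozyme gene, made up nearly all of that sum, with 655 ± 16.6 CPM at 30 µM against 469 ± 23.7 CPM in control (SD, n = 3 each). PTPRC, the gene of the pan-leukocyte protein CD45, MS4A1 and ADGRE1 were at 0 in all 9 libraries. CD14 was not, with 18 to 29 counts in each library. Over all 9 libraries CD68 had 32 counts, ITGAM 20, CSF1R 5 and CD3E 1. Endothelial markers summed to 4.49 to 5.54, 4.86 to 6.34 and 3.96 to 4.83 CPM in control, 20 µM and 30 µM libraries, and fibroblast markers to 33.9 to 40.8, 34.5 to 36.5 and 23.3 to 25.9 CPM, with COL1A2 and DCN at 0 in all libraries. Within the endothelial list VWF rose (log2 change 2.57 ± 0.377, edgeR adjusted p = 3.99e-07) and PECAM1 (−1.21) and CDH5 (−0.55) fell at 30 µM against control. The fibroblast sum was nearly all ACTA2, which fell by 0.75, while PDGFRB rose by 1.82 ± 0.254 (edgeR adjusted p = 1.58e-07) to 3.01 CPM at 30 µM, against 0.854 CPM in control. COL1A1 had 56 counts over all 9 libraries, LUM 4 and COL3A1 3. The part of other cell types in the cytokine values was not tested.

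CXCL8 (ENSG00000169429.12, chr4:73740506-73743716, plus strand, GENCODE 29) had the largest fold among the 10 genes. It had 15, 21 and 10 counts in the control libraries, 53, 38 and 41 counts at 20 µM, and 1085, 1193 and 1207 counts at 30 µM. In CPM this was 0.538, 0.947 and 0.359 in control, 2.00, 1.59 and 1.67 at 20 µM, and 50.2, 49.2 and 49.8 at 30 µM. The 3 groups did not overlap, and every library at 20 µM lay between the control and the 30 µM libraries. The log2 change was 6.38 ± 0.136 at 30 µM against control, a fold of 83.3, and 1.56 ± 0.222 at 20 µM against control. Between the doses the step was 4.82 ± 0.115 on the log2 scale, 30 µM over 20 µM. Among the 17623 genes tested, the CXCL8 log2 change ranked 5 from the highest at 30 µM and 74 at 20 µM, both against control.

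The other neutrophil chemokines lie beside CXCL8 on chromosome 4, in a row of 9 genes over 358.8 kb. CXCL8 is at one end of the row and CXCL2 at the other, with CXCL6, PF4V1, CXCL1, PF4, PPBP, CXCL5 and CXCL3 between them. CXCL3 was at 0 counts in all 9 libraries, as were CXCL6, PF4V1, PF4 and PPBP. CXCL1 had 3 counts over all 9 libraries, 1 in each group. CXCL5 had 6 counts over all libraries, 2 in control, 3 at 20 µM and 1 at 30 µM. At these counts neither a level nor a difference was detectable. Of the 3555 counts that the 3 libraries at 30 µM held in the 9 genes, 3485 were in CXCL8, or 98.0%.

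CXCL2 (chr4:74097035-74099293, minus strand) was the only other gene of the row with more than a few counts. It had 5, 0 and 9 counts in the control libraries, 5, 8 and 8 counts at 20 µM, and 26, 20 and 22 counts at 30 µM. Every 30 µM library was above every other library, while the 20 µM and control libraries overlapped. The log2 change at 30 µM against control was 2.43 ± 0.523, at a level of 0.979 ± 0.199 CPM at 30 µM against 0.168 ± 0.162 CPM in control (SD, n = 3 each). It was 3.24 without control replicate 3. At 20 µM against control it was 0.65 ± 0.615, and 1.47 without control replicate 3.

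The near-0 values of CXCL1 and CXCL3 were set beside the sequence that these genes share. Of all 75-base stretches of their GENCODE 29 transcripts, the read length in the labels, 0.245% for CXCL1, 4.57% for CXCL3 and 7.07% for CXCL2 also occurred in a transcript of another gene, and 0% for CXCL8. No other gene of GENCODE 29 overlapped CXCL1, CXCL2, CXCL3, CXCL5 or CXCL8, and in RefSeq LOC124900715 overlapped CXCL5. Whether the settings of the authors' counting bear on the near-0 values was not tested. The 250 bases before the RefSeq starts of CXCL1 and CXCL3 were 81.4% identical, those of CXCL1 and CXCL2 68.0%, and those of CXCL8 and each of the 4 others 40.5% to 45.0%.

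CCL20 (ENSG00000115009.13, chr2:227805739-227817564, plus strand) reached the highest level per kb of exon among the 10 genes at 30 µM. It had 4.34, 5.32 and 5.79 CPM in control libraries, 10.6, 11.4 and 14.3 CPM at 20 µM, and 111, 112 and 104 CPM at 30 µM. Its raw counts were 121, 118 and 161 in control, 281, 273 and 350 at 20 µM, and 2402, 2707 and 2508 at 30 µM. The groups did not overlap at either step. The log2 change was 4.40 ± 0.0976 at 30 µM against control, a fold of 21.2, and 1.23 ± 0.118 at 20 µM against control, where CCL20 and CXCL8 had the largest changes of the 10 genes.

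IL11 (ENSG00000095752.7, chr19:55364389-55370463, minus strand) was close to CCL20 in fold at 30 µM but differed from it at 20 µM. It had 2.80, 1.98 and 1.80 CPM in control libraries, 2.87, 2.76 and 3.43 CPM at 20 µM, and 45.2, 47.0 and 48.8 CPM at 30 µM. Raw counts were 78, 44 and 50 in control, 76, 66 and 84 at 20 µM, and 977, 1139 and 1181 at 30 µM. The 20 µM and control libraries overlapped, since the lowest 20 µM library was below the highest control library, and all 30 µM libraries stood above both. The log2 change was 4.41 ± 0.109 at 30 µM against control (21.3-fold) and 0.45 ± 0.149 at 20 µM against control, so that nearly all of the difference lay between the doses, where it was 3.96 ± 0.104.

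LIF (ENSG00000128342.5, chr22:30240447-30246851, minus strand), the second interleukin-6 family ligand, followed the same course. It had 12.2, 10.7 and 10.5 CPM in control libraries, 13.6, 15.4 and 14.9 CPM at 20 µM, and 128, 119.5 and 132 CPM at 30 µM. No library of one group reached into another, and the 20 µM libraries lay just above the control ones. The log2 change was 3.50 ± 0.0627 at 30 µM against control (11.4-fold) and 0.39 ± 0.0735 at 20 µM against control. LIF overlaps the antisense genes LIF-AS1 and LIF-AS2, and since the strand setting of the counting is not given in the sources used here, its counts are less certain than those of IL11.

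CSF1 (ENSG00000184371.14, chr1:109910242-109930992, plus strand), the macrophage growth factor, had 4.20, 4.28 and 4.85 CPM in control libraries, 6.23, 4.97 and 5.63 CPM at 20 µM, and 32.5, 32.0 and 33.5 CPM at 30 µM. The lowest 20 µM library was only a little above the highest control library, and the 30 µM libraries stood far above both groups. The log2 change was 2.87 ± 0.0958 at 30 µM against control (7.33-fold) and 0.34 ± 0.112 at 20 µM against control.

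IL32 (ENSG00000008517.19, chr16:3065297-3082192, plus strand) had the highest level per kb of exon of the 10 genes in untreated cells and, at 30 µM against control, the smallest fold of the 7 genes in the fit. It had 26.1, 24.7 and 22.1 CPM in control libraries, 29.5, 36.7 and 30.1 CPM at 20 µM, and 76.8, 79.7 and 83.8 CPM at 30 µM. The groups did not overlap, although 20 µM replicate 2 stood above the other 20 µM libraries. The log2 change was 1.72 ± 0.0754 at 30 µM against control (3.30-fold) and 0.40 ± 0.0794 at 20 µM against control. IL32 overlaps RNU1-125P and a gene on the opposite strand in GENCODE 29, so reads of these could not be told apart with certainty.

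**Figure D1:**
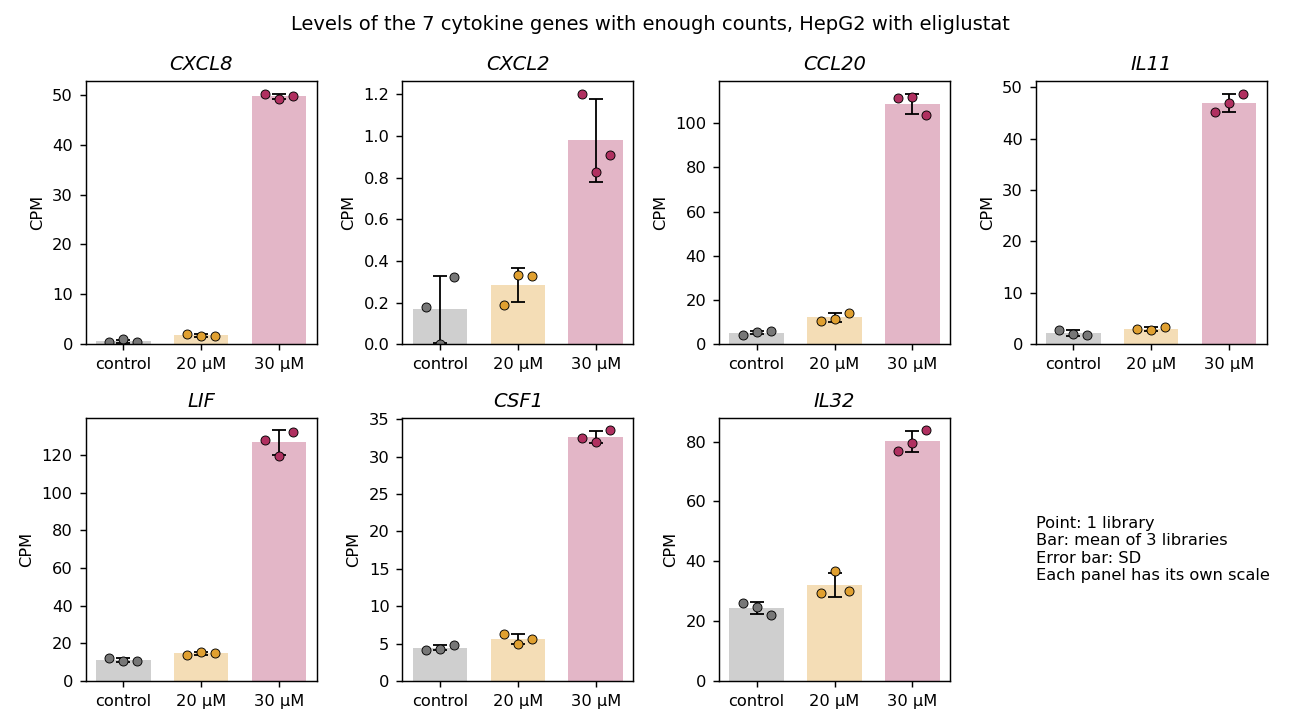
Level in CPM of each of the 7 cytokine genes in the fit, each on its own linear scale, for control, 20 µM and 30 µM libraries (points, libraries; bars, mean; error bars, SD; n = 3). The 30 µM libraries stand above all others in every panel, and the 20 µM libraries overlap the control ones for CXCL2 and IL11.

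Side by side, the 7 genes differed in how much of their change was present at 20 µM. The 20 µM log2 change was 28% of the 30 µM one for CCL20, 26.9% for CXCL2, 24.5% for CXCL8 and 23.3% for IL32, against 11.7% for CSF1, 11.2% for LIF and 10.2% for IL11. The CXCL2 share rests on few counts and on a 20 µM change that ranged from 0.16 to 1.47 with 1 library left out in turn. Both comparisons share the control libraries, so these shares are given without a test.

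At an adjusted p under 0.05 (edgeR, Benjamini-Hochberg over all genes tested), 7 of the 7 genes in the fit were called higher at 30 µM against control, where 29.5% of all genes tested were called higher. At 20 µM against control 6 of 7 were called higher, all but CXCL2, against 17.2% of all genes. With only the control and 20 µM libraries fitted, 4 were called, and CXCL2 had too few counts to enter that fit. With 1 library left out in turn 4 to 6 were called at 20 µM against control. IL11 was not called there without control replicate 2 or 3 or 20 µM replicate 3, nor CSF1 without control replicate 1 or 2 or 20 µM replicate 1. Between 30 and 20 µM, 7 of 7 were called higher, against 28% of all genes. Libraries did not overlap for 7 of 7 genes at 30 µM and 5 of 7 at 20 µM, each set against control, where 31.3% and 22.4% of all genes were higher without overlap, and for 7 of 7 genes between the doses, where 29.7% were. Falls were called for 31.3% of all genes at 30 µM and 16.9% at 20 µM, each against control, and for 28.9% between the doses. Since the genes were chosen for being higher, nothing is read from these counts. CXCL2 also entered the fit over all libraries only through its 30 µM libraries, so the filter favoured its part in the counts at 30 µM. The median log2 change of the 7 genes was 3.50 for 30 µM over control, 0.45 for 20 µM over control and 3.11 for 30 µM over 20 µM, and that of all genes tested was −0.04, 0.01 and −0.03.

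**Figure D2:**
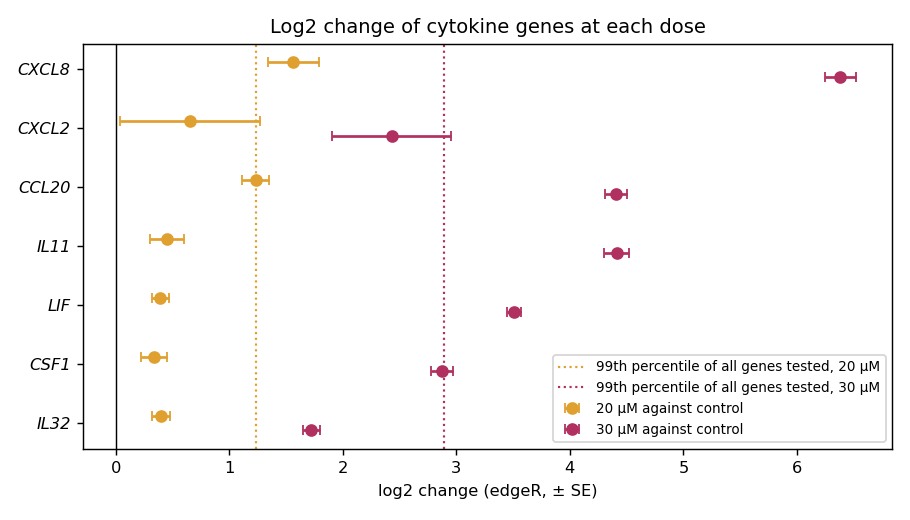
Log2 change ± SE (edgeR) of the 7 cytokine genes at 20 µM and at 30 µM, each against control, with dotted lines at the 99th percentile of all 17623 genes tested. CXCL8 lies beyond the line at both doses, and CCL20, IL11 and LIF lie beyond it at 30 µM.

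Levels of different genes were compared per kb of exon length. At 30 µM the order was CCL20 at 68.3 ± 2.85, LIF at 31.9 ± 1.62, IL32 at 25.0 ± 1.10, CXCL8 at 21.9 ± 0.227, IL11 at 17.6 ± 0.662, CSF1 at 6.03 ± 0.147 and CXCL2 at 0.653 ± 0.133 CPM per kb (SD, n = 3). The library ranges of neighbours in that order did not overlap, but such ranges do not cover the choice of length. In control cells the order was IL32 at 7.57 ± 0.642, CCL20 at 3.23 ± 0.463, LIF at 2.80 ± 0.227, IL11 at 0.821 ± 0.199, CSF1 at 0.820 ± 0.0657, CXCL8 at 0.270 ± 0.132 and CXCL2 at 0.112 ± 0.108 CPM per kb. There the ranges of CCL20 and LIF, of IL11 and CSF1, and of CXCL8 and CXCL2 overlapped. At 20 µM IL32 had 10.0 ± 1.25 and CCL20 7.59 ± 1.21 CPM per kb, and CCL20 passed IL32 only at 30 µM.

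The receptors through which these ligands act were mostly at or near 0 in HepG2. CXCR1 and ACKR1, a scavenger receptor of CXC chemokines, were at 0 in all libraries, CXCR2 had 1 count over all libraries and CSF1R had 2 or fewer in each. CCR6 had 2, 1 and 6 counts in control, 4, 3 and 1 counts at 20 µM and 16, 10 and 6 counts at 30 µM, too few to enter the fit. IL11RA had 2 to 14 counts per library and did not pass the test at 30 µM against control (log2 change 0.20 ± 0.545, edgeR adjusted p = 0.772).

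IL6ST (gp130) had 386, 407 and 410.03 CPM in control libraries, 484, 465 and 484 CPM at 20 µM, and 663, 662 and 632 CPM at 30 µM. The groups did not overlap. IL6ST rose by 0.70 ± 0.0330 on the log2 scale at 30 µM against control (edgeR adjusted p = 6.06e-19) and by 0.25 ± 0.0330 at 20 µM (adjusted p = 1.86e-07). LIFR, its partner chain for LIF, had 82.4, 80.7 and 82.1 CPM at 30 µM against 81.7, 83.3 and 84.4 CPM in control, with a log2 change of −0.02 ± 0.0415 that did not pass the test (edgeR adjusted p = 0.64). At 20 µM against control LIFR rose by 0.13 ± 0.0411 (edgeR adjusted p = 0.0111), and at 30 µM against 20 µM it fell by 0.16 (adjusted p = 0.00159). Per kb of exon, IL6ST stood at 70.2, LIFR at 6.89 and IL11RA at 0.0877 CPM at 30 µM, so IL6ST was near CCL20 in level.

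**Figure D3:**
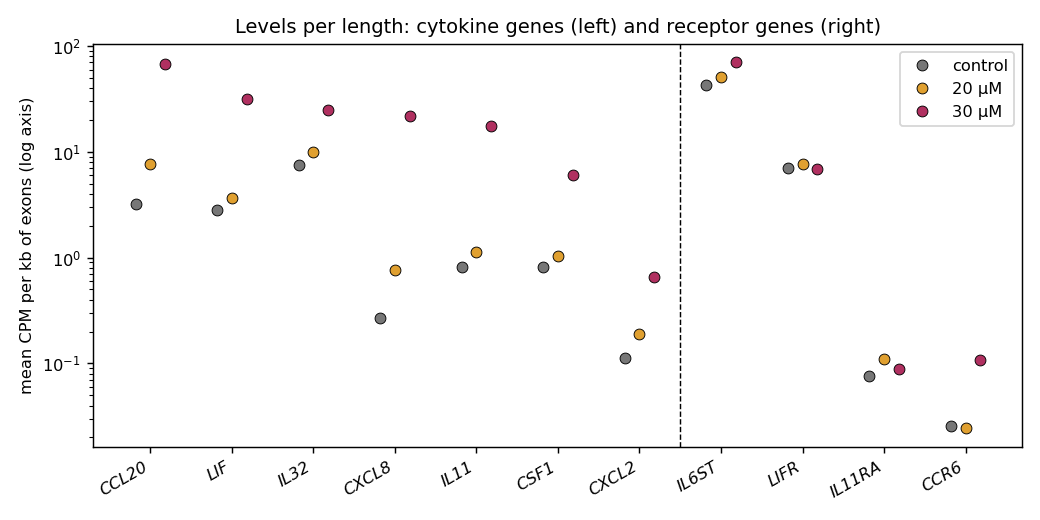
Mean level per kb of exon (CPM per kb, log axis) of the ligands and receptors in control, 20 µM and 30 µM libraries, n = 3 each. CXCL1, CXCL3, CXCL5, CXCR1, CXCR2, ACKR1 and CSF1R, with 0 to 6 counts in all, are not drawn, and IL6ST and CCL20 are the highest receptor and ligand at 30 µM.

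Other cytokine genes were described from lists, which were chosen with earlier results of these data known. Of 15 other CXC, CX3C and XC chemokines, 9 were at 0 in all libraries and 3 were tested, of which 2 rose and 0 fell at 30 µM against control, where 29.5% of all genes tested rose. CXCL16, a membrane-bound chemokine that also binds oxidised lipoprotein, rose to 29.8 ± 0.844 CPM at 30 µM, against 11.0 ± 1.10 CPM in control (log2 change 1.43 ± 0.0801, edgeR adjusted p = 6.26e-17). CX3CL1, the ligand of CX3CR1, rose to 221 ± 10.1 CPM at 30 µM, against 167 ± 1.98 CPM in control (0.40 ± 0.0371, edgeR adjusted p = 2.12e-11).

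Of 23 other CC chemokines, 13 were at 0 and 4 were tested. Of these, 2 rose and 0 fell at 30 µM against control, where 29.5% of all genes tested rose and 31.3% fell. CCL16, a chemokine made mainly in liver, had 17.7 ± 1.31 CPM at 30 µM against 7.48 ± 0.236 CPM in control (log2 change 1.24 ± 0.0926, edgeR adjusted p = 1.19e-13). Most of its difference was present at 20 µM, with 15.1 ± 1.01 CPM (1.02 ± 0.0932 against control, adjusted p = 1.25e-10). CCL15 rose to 2.41 ± 0.243 CPM at 30 µM, against 1.01 ± 0.435 CPM in control (1.24 ± 0.266, edgeR adjusted p = 0.000145). CCL2, the monocyte chemokine, was at 0 in all 9 libraries and was chosen for mention after its values were seen.

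Of 11 other ligands of the interleukin-6 family and the colony-stimulating group, 5 were tested. At 30 µM against control 1 of them rose, where 29.5% of all genes tested rose. CLCF1, a ligand that signals through gp130, had 11.0 ± 1.01 CPM at 30 µM against 1.73 ± 0.175 CPM in control (log2 change 2.67 ± 0.157, edgeR adjusted p = 2.32e-16). At 20 µM it had 1.66 ± 0.227 CPM, a change of −0.06 that did not pass the test (edgeR adjusted p = 0.859). IL6 itself was at 0 in all 9 libraries, and OSM had 17, 11 and 10 counts at 30 µM against 1, 0 and 0 in control, too few to enter the fit; both were chosen for mention after their values were seen.

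Of 12 genes of JAK-STAT3 signalling and its feedback, all tested, 8 rose and 4 fell at 30 µM against control, while 60.8% of all genes tested were called in either direction, against 34.2% for 20 µM over control and 57% between the doses. The list's median log2 change was 0.45, against −0.04 for all genes. At 20 µM against control 3 rose and 2 fell. PIM1, a kinase gene induced by STAT3, had 152 ± 3.34 CPM at 30 µM against 55.1 ± 1.44 CPM in control (log2 change 1.46 ± 0.0476, edgeR adjusted p = 3.06e-23). SOCS3, which blocks gp130 signalling, rose by 1.14 ± 0.177 (edgeR adjusted p = 1.01e-06) to 5.23 ± 0.768 CPM at 30 µM, against 2.35 ± 0.198 CPM in control. SOCS2 rose by 1.28 ± 0.182 (edgeR adjusted p = 2.2e-07), and CISH, a feedback gene of STAT5 signalling, fell by 0.98 (edgeR adjusted p = 0.000131).

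Of 16 genes of NF-kB, AP-1 and C/EBP factors and NF-kB inhibitors, 16 rose and 0 fell at 30 µM against control, where 29.5% of all genes tested rose and 31.3% fell, and 12 rose and 0 fell at 20 µM, where 17.2% of all genes rose. The list's median log2 change was 1.88 at 30 µM and 0.44 at 20 µM, both against control. The list was chosen with earlier results of these data known, so its counts are a description only. FOS rose to 49.5 ± 1.86 CPM at 30 µM, against 2.77 ± 0.160 CPM in control (log2 change 4.16 ± 0.0915, edgeR adjusted p = 4.98e-28). JUN had 307 ± 10.1 CPM at 30 µM against 21.9 ± 0.390 CPM in control (3.81 ± 0.0590, edgeR adjusted p = 2.24e-23). RELB, an NF-kB subunit, rose by 3.72 ± 0.127 (edgeR adjusted p = 5.93e-22) and JUNB by 3.21 ± 0.0644 (edgeR adjusted p = 1.51e-28). At 20 µM against control the changes were 1.94 for FOS, 1.44 for JUN, 1.62 for RELB and 1.34 for JUNB. These 4 had been taken by their change at 30 µM, and others of the list were lower at 20 µM, such as FOSL1 (0.03, not past the test, against 3.05 at 30 µM), FOSL2 and NFKB2 (0.45 each) and RELA (0.08) and NFKB1 (−0.02), neither past the test; these 5 were chosen after their values were seen.

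Of 12 genes whose proteins bind or regulate AU-rich or other short-lived mRNAs, 6 rose and 6 fell at 30 µM against control, where 60.8% of all genes tested were called (29.5% higher and 31.3% lower). The list's median log2 change was 0.23, against −0.04 for all genes. ZFP36 (tristetraprolin) rose to 55.7 ± 4.84 CPM at 30 µM, against 5.09 ± 0.644 CPM in control (log2 change 3.44 ± 0.102, edgeR adjusted p = 2.89e-18). ZC3H12A, the RNase regnase-1, rose by 2.20 ± 0.0851 (edgeR adjusted p = 1.99e-20), ZFP36L1 by 1.64 ± 0.0796 (adjusted p = 1.93e-07) and MAPKAPK2, the kinase that restrains tristetraprolin, by 1.21 ± 0.0466 (adjusted p = 2.78e-21). The 6 that fell, listed after their values were seen, were TIA1, HNRNPD, KHSRP, ELAVL1, TIAL1 and ZFP36L2, with log2 changes between −0.56 for TIA1 and −0.12 for ZFP36L2. ELAVL1 is known as a stabiliser of AU-rich mRNAs and KHSRP as a destabiliser.

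**Figure D4:**
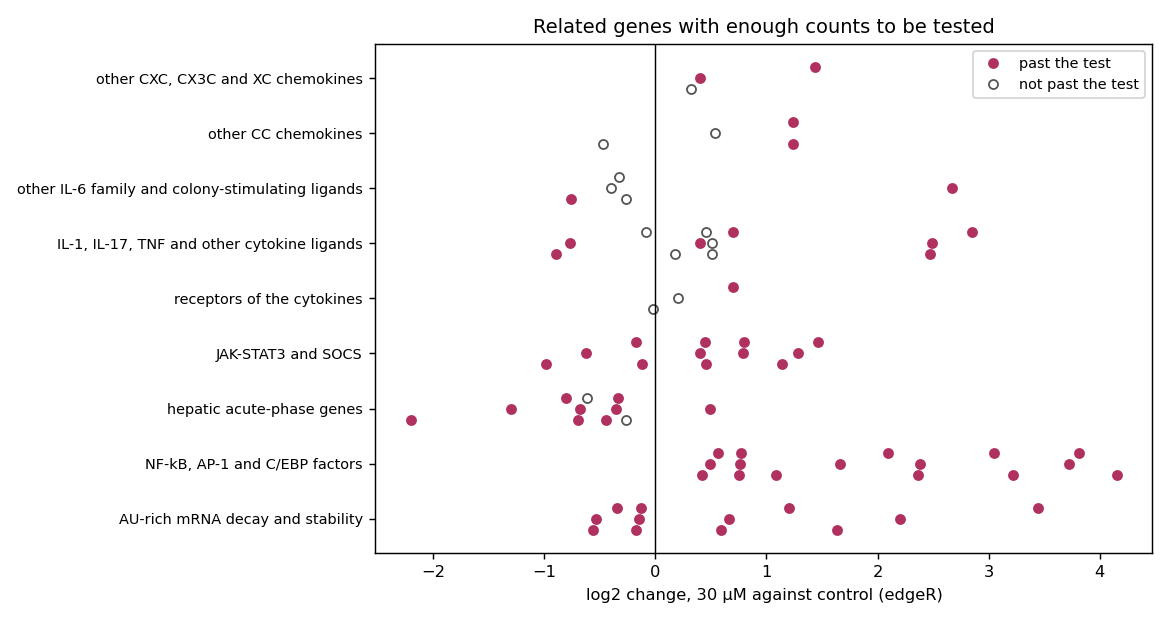
Log2 change (edgeR) at 30 µM against control of each related gene in the fit, 1 point per gene and 1 row per list, filled where the adjusted p was under 0.05. All 16 genes of NF-kB, AP-1 and C/EBP factors lie right of 0, and 8 of 11 acute-phase genes are filled and left of 0. The lists were chosen with earlier results of these data known.

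The genes whose log2 CPM followed CXCL8 most closely over the 9 libraries were PDCD6IP, RAB3B, ZBTB43, PALLD and ALPK3, with Pearson r of 0.998 for the first and 0.997 for the others. RAB3B had 118 ± 0.575 CPM at 30 µM against 11.8 ± 1.13 CPM in control, while PDCD6IP had 123 ± 1.18 CPM at 30 µM against 90.5 ± 2.89 CPM in control. For IL11 the closest were MEAF6, AKAP12, ETS1, SPRED2 and SPTBN1, with r of 0.9985 for MEAF6, the highest, and 0.9979 for SPTBN1, the lowest. AKAP12 had 743 ± 22.5 CPM at 30 µM against 63.3 ± 3.64 CPM in control. Of 11525 genes compared, 148 had r over 0.99 with CXCL8 and 241 with IL11. The libraries form 3 groups and share their depth scaling, so a high r mainly reflects a similar spacing of the group means and is a description only. Among the cytokine genes, r ranged from 0.972 to 0.998 over the 15 pairs without CXCL2 and from 0.784 to 0.854 over the 6 pairs with it.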

How the data were processed

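RNA of 9 HepG2 libraries was sequenced as paired reads. The authors deposited 1 file of raw counts per gene for each library, made with FastQC, STAR 2.7.10a and HTSeq on hg38, per the submitters' processing notes. Neither the annotation release nor the strand setting of counting is given in the sources used here. The labels conflict on polyA RNA or depletion of ribosomal RNA, and the series text gives a further incubation that the labels do not tie to these libraries. HTSeq's closing totals were kept out of library sizes and tests; reads in no feature were 20.1% to 26.4% of records and ambiguous reads 3.93% to 4.45%.

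Symbols were found for 62686 of 62703 identifiers and positions in GENCODE 29 for 58264. From the deposited counts, genes kept by filterByExpr (17623, holding 99.9% of counts) were scaled by TMM, and the quasi-likelihood test of edgeR 4.0.16 was run in R 4.3.3, with 1 mean per group over all 9 libraries (biological coefficient of variation 0.0529) and Benjamini-Hochberg adjustment. Libraries within each group differed by more than sampling noise (chi-square of 2.06 to 7.74 per gene). The members and lists were chosen with earlier results of these data known. Named genes are all 10 members, all receptors, up to 4 genes per list with adjusted p under 0.05 and a mean of at least 1 CPM by largest change at 30 µM against control, and the 5 genes most like CXCL8 and IL11; 1 gene taken by this rule is withheld and not reported here. The fit was tested on simulated data, where the share of false calls was above the threshold aimed at. Calls with an adjusted p near 0.05 are therefore less certain than that value states. Alternatives were other size factors, library size alone, DESeq2 1.42.0, no filter, only the groups compared, a replicate block and each library left out; leaving out 3 libraries that deviate together was chosen after seeing the data.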

Additional observations from a re-analysis of the deposited data

Results flagged for a closer look

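In data that no comparison above uses, the share of alignment records placed at more than 1 position in the genome was higher after treatment than in control. It averaged 14.6% at 20 µM (SD 1.12, n = 3) and 16.8% at 30 µM (SD 2.38, n = 3), against 12.5% in control (SD 0.199, n = 3). These records are left out of the counts per gene, and their part in the cytokine values was not tested. Of the 75-base stretches of the transcripts of each gene in the fit, the share that also occurs in a transcript of another gene was 7.07% for CXCL2, 3.03% for LIF (shared with antisense genes), 1.32% for IL32 (shared with RNU1-125P) and 0% for CXCL8, IL11, CSF1 and CCL20.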

How the results depend on the processing

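The cytokine genes were chosen for being higher in these libraries, so their calls say nothing about stability. At 20 µM against control 4 to 6 were called, over each library left out and over the others. IL11 was not called there without control replicate 2, control replicate 3 or 20 µM replicate 3, nor with only those groups fitted, and CSF1 not without control replicate 1, control replicate 2 or 20 µM replicate 1, with only those groups, or without the 3 libraries that deviate together; the cause was not tested. Leaving out control replicate 3 moved the CXCL2 fold at 30 µM to 9.46 (5.38 with all libraries) and at 20 µM to 2.77 (1.57 with all libraries). The CXCL8 log2 change at 30 µM against control ranged from 6.09 to 6.78 with 1 library left out and from 6.17 to 6.42 otherwise. Library size alone moved the median of all genes at 30 µM against control to −0.246 (−0.0361 with TMM) and the calls to 3530 higher and 8022 lower, against 5192 and 5515; CXCL8 was then at 6.17. Against 20 µM, upper-quartile factors gave 40.4% of calls higher, against 49.2%, and library size alone 28.3%. Related genes turned direction for CX3CL1 between the doses (−0.0153, library size alone), CLCF1 at 20 µM (0.00456 without control replicate 2, with a range of −0.17 to 0.00456 over each library left out, and 0.0160 without the 3 libraries) and IL18 at 20 µM (−0.00602 without 20 µM replicate 1, with a range of −0.00602 to 0.72), none of which passed the test there. The fall of CP was not called without control replicate 3 (adjusted p = 0.265) or 30 µM replicate 2 (0.0656), and the rises of CCL15, CCL16 and the fall of IL7 between the doses were lost under several alternatives. In all, 1343 values of named related genes kept direction and call, 23 lost and 7 gained a call, and 4 turned. With a replicate block, 5952, 10635 and 9955 genes were called for 20 µM over control, 30 µM over control and 30 µM over 20 µM, with 6, 7 and 7 cytokine genes among them. Same-numbered libraries did not deviate together in general (4 of 9 pairs with a correlation over 0.1, from −0.202 to 0.352), and the main fit used no pairing. With 3 libraries per group these correlations cannot decide whether the number marks matched cultures. The 3 libraries that deviate together were control replicate 1, 20 µM replicate 3 and 30 µM replicate 3. Their correlations across groups were 0.331 to 0.352, and the cause was not tested. For CXCL1, CXCL3 and CXCL5, with 0 to 3 counts per library, no difference was detectable, and whether the settings of the authors' counting bear on these values was not tested.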

Other observations

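Hepatic acute-phase genes, the plasma protein genes that gp130 ligands are known to induce in hepatocytes, mostly fell at 30 µM among those tested, but not at 20 µM. Of 16 genes on the list 11 were tested, of which 3 rose and 2 fell at 20 µM against control and 1 rose and 8 fell at 30 µM against control. Against control 29.5% of all genes tested rose and 31.3% fell at 30 µM, and 17.2% rose and 16.9% fell at 20 µM. The list's median log2 change at 30 µM was −0.61, against −0.04 for all genes. HP (haptoglobin) fell to 30.3 ± 2.30 CPM at 30 µM, against 74.5 ± 3.23 CPM in control (−1.30 ± 0.0542, edgeR adjusted p = 2.53e-20). FGG, a fibrinogen chain, fell to 1214 ± 24.7 CPM at 30 µM, against 1960 ± 71.8 CPM in control (−0.69 ± 0.0318, edgeR adjusted p = 3.18e-19), although at 20 µM it rose by 0.14 (adjusted p = 0.000661). SERPINA3 fell by 0.80 (edgeR adjusted p = 9.65e-12) and CP by 0.68 (adjusted p = 0.0177), the call for CP being lost without control replicate 3 and without 30 µM replicate 2. A2M, chosen after its values were seen, was the 1 gene of the list that rose, with 8598 ± 48.8 CPM at 30 µM against 6107 ± 86.7 CPM in control (0.49 ± 0.0278, edgeR adjusted p = 8.26e-17). CRP and SAA1 were at 0 in all libraries.

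Among 32 ligands of the IL-1, IL-17 and TNF families and other cytokines, 12 were tested, of which 5 rose and 2 fell at 30 µM against control, where 29.5% of all genes tested rose and 31.3% fell. TNFSF14 (LIGHT) had 12.8 ± 0.280 CPM at 30 µM against 1.80 ± 0.475 CPM in control (2.85 ± 0.146, edgeR adjusted p = 5.98e-18), and already 6.13 ± 0.527 CPM at 20 µM. TNFSF9 rose by 2.49 ± 0.303 (edgeR adjusted p = 1.05e-08) and IL18 by 2.47 ± 0.323 (adjusted p = 4.57e-08), both at under 3 CPM in every library, and IL7 fell by 0.89 (adjusted p = 0.00093). TNFSF10 (TRAIL), chosen after its values were seen, rose by 0.72 at 20 µM against control (edgeR adjusted p = 0.00111) and fell by 0.76 at 30 µM against control (adjusted p = 0.000898), and the difference between the doses was −1.48 ± 0.185 (adjusted p = 2.35e-08). TNF had 7, 11 and 7 counts at 30 µM against 0 in each control library, and IL1B was at 0 in all libraries; both were chosen after their values were seen.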
